A study of Mus musculus with 11 samples.

Results

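The genes described here encode the vesicle exocytosis machinery, the proteins that bring a secretory granule to the plasma membrane, dock and prime it there and fuse it when calcium rises. They were found by symbol, which took 76 of the 55401 genes in the count table. By family these were 17 synaptotagmins, 15 syntaxins, 7 syntaxin-binding proteins, 7 VAMPs, 6 small GTPases of the Rab3 and Rab27 groups, 5 SNAPs, 5 synaptotagmin-like proteins, 4 RIMs, 4 Munc13 proteins, 4 complexins, and rabphilin with its relative Noc2. The symbol rule itself uses no measured value. Of the 76 members, 69 had enough counts to be tested, among 17424 tested genes. The 7 that had not were *Vamp9*, *Cplx1*, *Cplx4*, *Syt8*, *Syt10*, *Unc13c* and *Stx19*. *Snap91*, a member by its symbol, encodes a clathrin assembly protein of endocytosis and not a SNARE.

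RNA-seq was performed on cells that FACS had separated from dispersed, hand-picked islets of male C57BL6/J mice on chow, 10 weeks old by the labels. All mice carried Cre under the rat insulin promoter, a tdTomato reporter behind a stop cassette and an eGFP transgene driven by *Nnat*, so that the 3 fractions differed only by their sort. By label, NNAT-positive beta cells gave 4 libraries, NNAT-negative beta cells also 4 and non-beta cells 3. Each replicate number was one mouse, and mouse 4 had no non-beta library. What counts as a beta cell was therefore set by past activity of a rat insulin transgene, and the non-beta fraction was whatever remained of the islet preparation. Total counts per library were 30420352 to 43238376, a depth at which 3 counts amount to 0.0649 to 0.102 CPM (a gene's share of its library's counts, with the library size scaled by TMM), and that floor covers counting error only. The beta cell list of 10 markers summed to 183083–428573 CPM in the 8 beta libraries and 10987–26614 CPM in the non-beta libraries. The alpha cell list of 6 summed to 1587–4077 and 123279–171503 CPM, respectively, so the fractions carried the markers of their sort. *Nnat* itself went against the labels, since 4 of 4 mice had less of it where the label said NNAT-positive (log2 change −0.62), and the fractions are named by label throughout.

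Regulated exocytosis runs on a conserved sequence of steps. Rab3 and Rab27 sit on the granule and recruit effectors such as granuphilin, Noc2 and the RIM scaffolds, which tether it to the plasma membrane. Munc13 proteins then guide assembly of the SNARE complex from a syntaxin, a SNAP and a VAMP, complexin holds the complex in check, and synaptotagmins couple its final zippering to calcium. Beta cells use this machinery to release insulin, alpha and delta cells to release glucagon and somatostatin, and acinar cells to release zymogen.

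Beta cells were compared with non-beta cells by setting the mean of both beta fractions against the non-beta fraction, which does not depend on which beta label is right. Beta cells had more RNA for some synaptotagmin-like, RIM, Rab3 and Munc13 genes (*Sytl4*, *Rims3*, *Rab3a*, *Rab3d*, *Unc13a*, *Unc13b*) and for 5 synaptotagmins. They had less for the syntaxins *Stx1a*, *Stx2* and *Stx11*, for 6 other synaptotagmins, for *Stxbp5l* and for further members with a mean under 10 CPM in beta cells. Among these were *Rab3c*, *Rab27b*, *Sytl2* and *Unc13d*, from families that also held rises. All genes were tested together by the quasi-likelihood test of edgeR, blocking on the mouse, with Benjamini-Hochberg adjustment over the 17424 genes, and a log2 change of 1 is 2-fold. At an adjusted *p* below 0.01 and a change of more than 2-fold, called hereafter, 13 members (18.8%) were higher and 15 (21.7%) lower in beta cells, where 6.22% and 18.9% of all tested genes were. In either direction 28 of 69 members passed, 40.6% beside 25.1% of all genes. The median log2 change of the members was 0.22, and that of all tested genes was −0.098. At the same adjusted *p* with any fold, 25 members were higher and 16 lower, beside 17.2% and 23.9% of all genes. With the limit on the adjusted *p* at 0.05, 51 members passed, 31 of them higher, where 22.3% of all genes were higher and 30.1% lower. All 8 beta libraries lay above all 3 non-beta libraries for 25 members (16.5% of all genes) and below them for 17 (26.2%). Of the 15 lower members, 12 had a mean under 10 CPM in beta cells, and the others were *Stx2*, *Stxbp5l* and *Syt9*. That level is itself part of the change, so the split is a description only. With DESeq2, *Cplx3* was called higher as well. Without mouse 3, which leaves 2 non-beta libraries, the calls for lower members went from 15 to 9. Those over all genes went from 3294 of 17424 tested to 2609 of 18222.

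**Figure D1:**
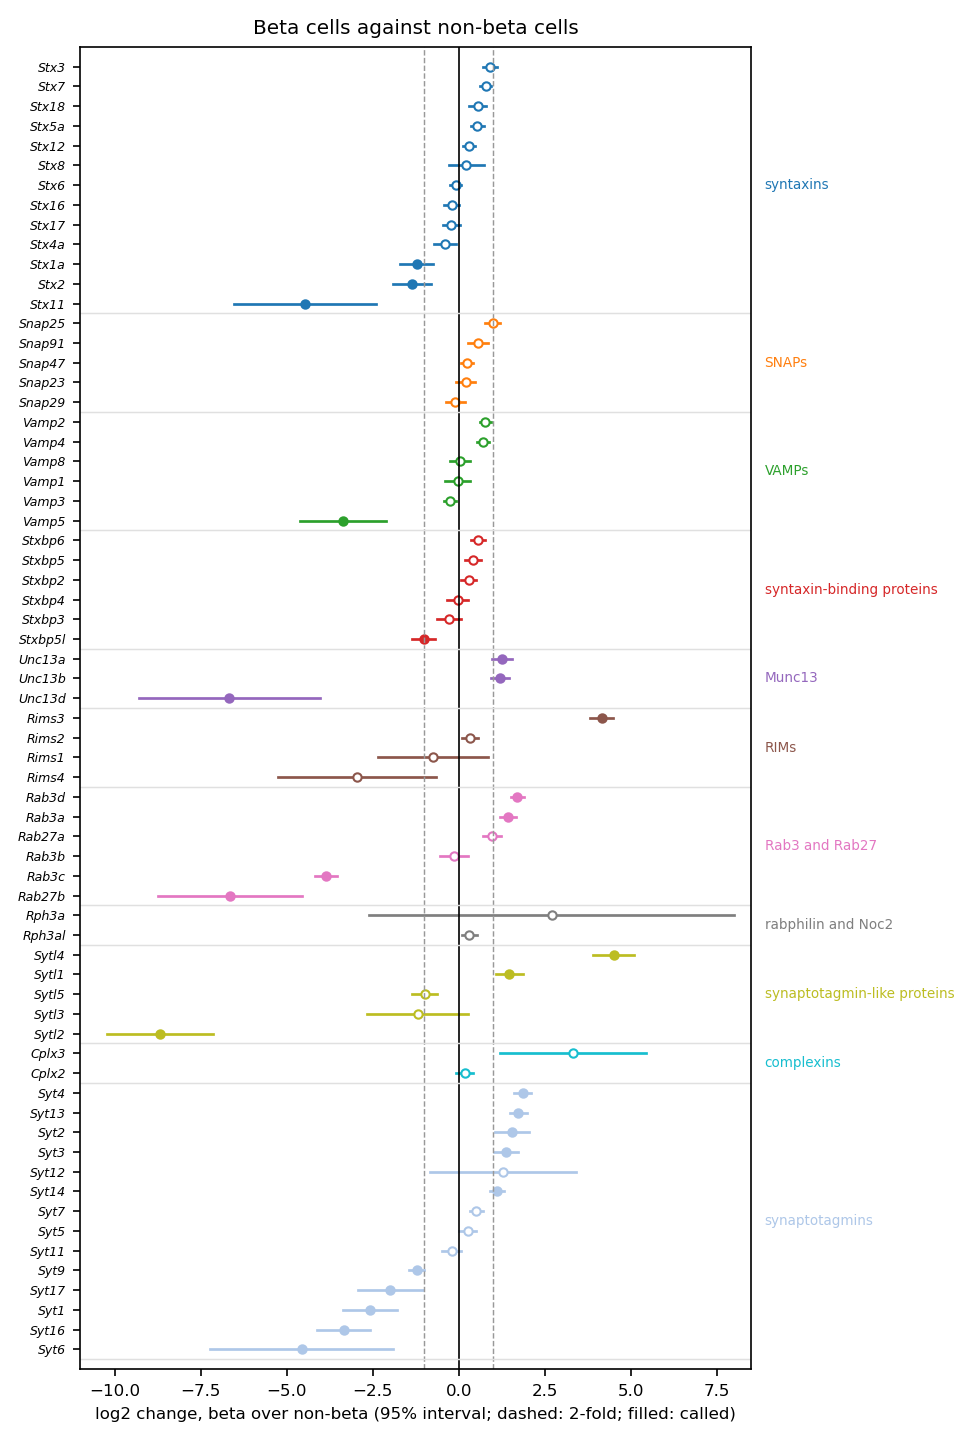
The log2 change in beta over non-beta cells (x axis) of 66 tested members, one per row and grouped by family in colour, with 95% intervals, dashed lines at 2-fold and filled circles for called members; *Syt15*, with 2 counts in all beta libraries, is left out. *Sytl4* and *Rims3* stand far to the right at 4.50 and 4.15, most SNARE genes lie within 2-fold, and the wide intervals on the left belong to members near 0 CPM in beta cells.

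The non-beta libraries were a mixture. Beside alpha cell markers they carried delta cell markers (6886–13480 CPM for 3 genes), PP cell markers (1857–3690 CPM for 2 genes) and acinar markers (10862–41314 CPM for 5 genes). The endothelial (1532–1743 CPM), stellate (1857–4176 CPM) and leukocyte lists (246–631 CPM) were at most 5.14 CPM in any beta library. The acinar list was at 7.13–1484 CPM (median 92.0) in the beta libraries. The duct list of 4 genes went the other way, with 196–260 CPM in beta and 142–183 CPM in non-beta libraries. The neural list of 4 was at 6.49–16.4 and 22.6–30.5 CPM, respectively. In bulk RNA a gene with a lower value may be in fewer of the cells or at a lower level in each, and these cannot be told apart. Which of the mixed cells supplied a member's RNA was not tested.

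The small GTPases of the granule came first in the order of events. *Rab27a*, the GTPase of insulin granules that binds granuphilin, had the highest level per length of the family in both kinds of cell, at 73.4 CPM per kb of exon (CPM divided by the length of all exons, for comparing genes) in beta and 39.6 in non-beta cells. In the beta libraries it ranged from 253 to 316 CPM (median 290.0), beside 121, 166 and 173 CPM in the non-beta libraries, and its log2 change of 0.95 (SE 0.12, adjusted *p*=6.36e-05) fell just short of 2-fold. It passed 2-fold, and was called, without mouse 2 (1.01) and without mouse 3 (1.06). *Rab3d* (ENSMUSG00000019066.13, chromosome 9 of GRCm38 from 21907491 to 21918192, minus strand), an isoform also known from exocrine granules, came close behind. It had 199 to 340.0 CPM (median 314) in beta cells and 83.1, 104 and 111 CPM in non-beta cells, with no overlap, and rose by 1.70 (SE 0.086, adjusted *p*=1.36e-07) on the log2 scale. *Rab3a*, the isoform of synaptic vesicles, had 91.5 to 129 CPM (median 112) and 40.1, 37.7 and 52.2 CPM, a log2 change of 1.43 (SE 0.10, adjusted *p*=1.36e-06). *Rab3b* overlapped between the fractions (23.8 to 46.2 CPM (median 32.9) beside 28.9, 43.4 and 43.6 CPM).

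The other members of the family went the opposite way. *Rab3c* (ENSMUSG00000021700.10, chromosome 13 of GRCm38 from 110054187 to 110280996, minus strand) had only 2.77 to 5.33 CPM (median 3.33) in the beta libraries, while the non-beta libraries held 57.8, 57.4 and 42.2 CPM, a log2 change of −3.85 (SE 0.14, adjusted *p*=2.03e-08). *Rab27b*, the paralogue of *Rab27a* known from zymogen granules and platelets, was at 0 in 3 of 8 beta libraries and at most 0.759 CPM in the others. It had 14.1, 19.7 and 15.4 CPM in non-beta cells, and 64 counts over all beta libraries beside 1968 over the non-beta libraries (log2 change −6.66 (SE 0.94, adjusted *p*=0.000174)). Of the family's level per length, *Rab27a* and *Rab3d* made up 36.5% and 34.0% on average in beta libraries and 39.6% and 23.8% in non-beta libraries. *Rab3c* held 0.1–0.2% of it in beta and 3.1–5.8% in non-beta libraries.

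The synaptotagmin-like proteins are Rab27 effectors, and the family held members with strong changes in both directions. *Sytl4* (ENSMUSG00000031255.14, chromosome X of GRCm38 from 133936385 to 133981812, minus strand) encodes granuphilin, which docks insulin granules through Rab27 and syntaxin. For mice 1 to 4, the libraries labelled NNAT-positive had 675, 664, 727 and 633 CPM of it and those labelled NNAT-negative 699, 756, 760.1 and 768 CPM. The non-beta libraries had 23.2, 21.5 and 57.2 CPM. These values averaged 675 ± 39.3 CPM (SD, *n*=4) and 746 ± 31.5 CPM (SD, *n*=4) in the beta fractions, against 34.0 ± 20.1 CPM (SD, *n*=3), and the log2 change was 4.50 (SE 0.27, adjusted *p*=3.78e-07), the largest rise of any member. *Sytl1* was also higher in beta cells, at a lower level (21.6 to 39.3 CPM (median 29.4) beside 9.04, 10.4 and 10.7 CPM, log2 change 1.47 (adjusted *p*=6.02e-05)).

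In the non-beta libraries *Sytl5* led the family instead. It had 23.6 to 34.3 CPM (median 29.3) in beta cells and 43.9, 72.9 and 54.7 CPM in non-beta cells without overlap, and its log2 change of −0.996 (SE 0.16, adjusted *p*=0.000377) stopped at the 2-fold limit. It was called under other settings, among them DESeq2 and RLE scaling (−1.07 in both), without mouse 1 (−1.18) and without mouse 3 (−1.06). *Sytl2*, whose product is known for glucagon granules and for epithelial secretion, had 15.8, 10.8 and 12.8 CPM in non-beta cells and at most 0.410 CPM in beta cells, with 4 of 8 beta libraries at 0 (33 counts in all beside 1614). Its log2 change was −8.68 (SE 0.69, adjusted *p*=3e-06). Mouse 4, which had no non-beta library, held 11 and 15 of the 33 beta counts. The mean levels of *Sytl2* were 0.106 CPM in beta and 13.1 CPM in non-beta cells. *Sytl3* was under 2 CPM in every library. Per length, *Sytl4* made up 82.0–87.8% of the family in the beta libraries and 10.2–27.6% in the non-beta libraries, while *Sytl5* made up 6.1–9.3% and 58.8–77.0%. The sum over the family was 150–176 CPM per kb in beta and 28.5–41.1 CPM per kb in non-beta cells.

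The makeup of the RIM family differed as well, through a rise of 1 member. *Rims3* (ENSMUSG00000032890.17, chromosome 4 of GRCm38 from 120854816 to 120896579, plus strand) encodes a short RIM that lacks the Rab-binding part of the long ones. Mice 1 to 4 had 209, 218, 206 and 232 CPM of it under the label NNAT-positive and 222, 221, 219 and 247 CPM under the label NNAT-negative, and the non-beta libraries had 11.9, 9.27 and 15.7 CPM. The beta libraries were close together and far above the non-beta libraries, with a log2 change of 4.15 (SE 0.15, adjusted *p*=1.91e-08). *Rims2*, the long RIM through which insulin granules dock, overlapped between the fractions, with 52.6 to 76.7 CPM (median 63.1) beside 39.9, 57.4 and 54.4 CPM (log2 change 0.33 (adjusted *p*=0.0197)). *Rims1* did not exceed 1.46 CPM in any library. *Rims4* had 0.951, 3.68 and 0.834 CPM in non-beta and at most 0.984 CPM in beta cells, and did not pass the test (adjusted *p*=0.0341). The share of *Rims3* in the family per length was 77.8–84.5% in beta and 15.3–26.7% in non-beta libraries, and that of *Rims2* 15.4–21.1% and 68.5–72.6%. Noc2 (*Rph3al*), a Rab3 and Rab27 effector of endocrine cells, made up at least 99.1% of its pair in every library and had 104 to 136 CPM (median 120.0) in beta cells and 76.4, 114 and 112 CPM in non-beta cells (log2 change 0.31 (adjusted *p*=0.026)). Rabphilin itself (*Rph3a*) was near the floor, at no more than 1.26 CPM.

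**Figure D2:**
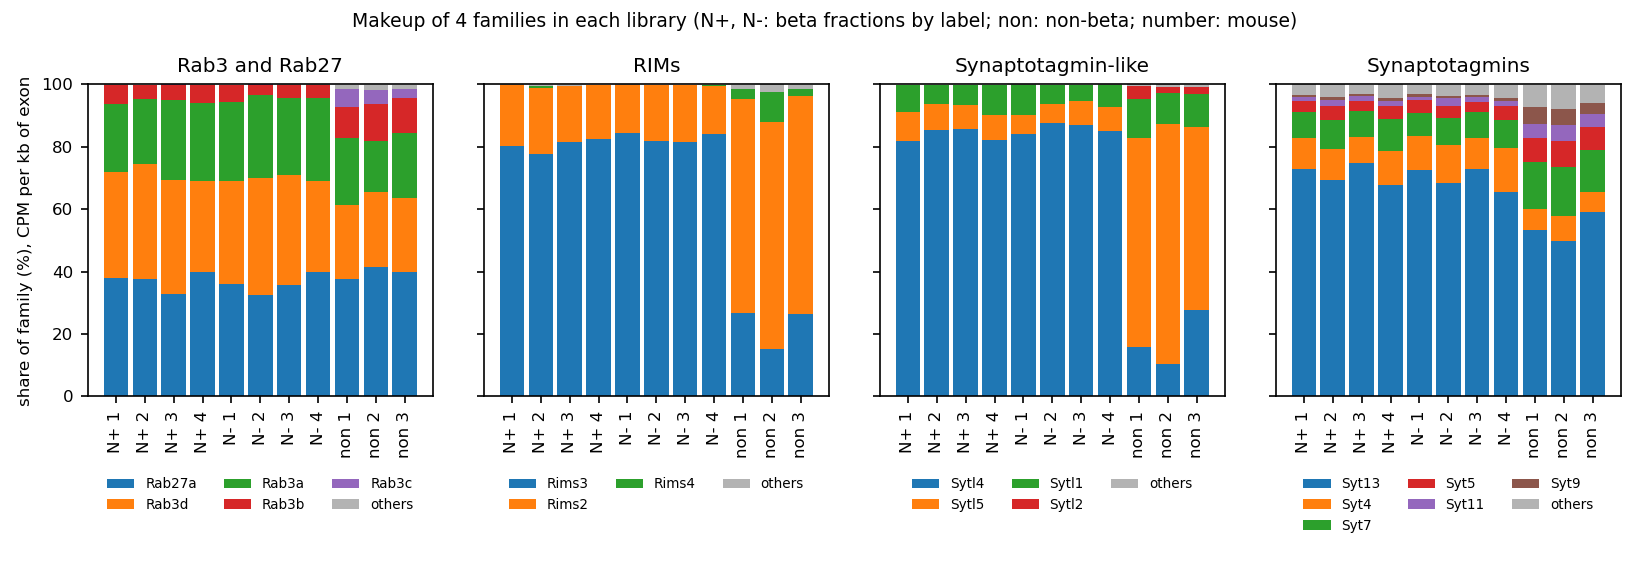
Each bar is one library and each colour a gene's share (y axis, %) of its family's summed CPM per kb of exon, for the Rab3 and Rab27, RIM, synaptotagmin-like and synaptotagmin families, with N+ and N- for the beta fractions by label, non for non-beta and the mouse number after it. *Rims3* and *Sytl4* fill at least 77.8% of their families in all 8 beta libraries and at most 27.6% in the 3 non-beta libraries, where *Rims2* and *Sytl5* lead.

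The 3 called members with the largest rises and the 3 with the largest falls among those with a single RefSeq start and few exonic bases before it are shown with the 250 bases before the start, since these stretches precede genes that move in opposite directions between the same fractions. They come from RefSeq on GRCm38.p6, read 5′ to 3′ on the gene's strand, with *Sytl4* at chrX:133981813-133982062, minus strand, *Rims3* at chr4:120854549-120854798, plus strand, *Rab3d* at chr9:21918184-21918433, minus strand, *Rab3c* at chr13:110280207-110280456, minus strand, *Vamp5* at chr6:72380469-72380718, minus strand and *Stx1a* at chr5:135023232-135023481, plus strand. Capitals mark matches on either strand to the motifs searched, a GC box GGGCGG (or its reverse complement), a TATA box TATAAA, a CRE half-site TGACGT, an E-box CATCTG, an RE1 half-site CAGCACC and a forkhead site TGTTTAC. In *Rims3* a GC box and an E-box lie side by side without overlap, and in *Vamp5* a pair of GC boxes overlaps.
Sytl4: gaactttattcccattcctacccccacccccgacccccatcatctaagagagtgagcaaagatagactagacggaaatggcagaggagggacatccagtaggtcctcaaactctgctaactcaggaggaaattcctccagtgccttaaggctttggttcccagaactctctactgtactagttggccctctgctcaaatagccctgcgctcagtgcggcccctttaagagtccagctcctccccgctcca
Rims3: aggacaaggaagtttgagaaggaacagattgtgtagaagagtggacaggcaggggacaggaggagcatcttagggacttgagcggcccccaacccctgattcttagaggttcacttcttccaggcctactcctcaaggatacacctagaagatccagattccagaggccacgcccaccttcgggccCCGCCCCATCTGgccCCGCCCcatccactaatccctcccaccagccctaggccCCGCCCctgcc
Rab3d: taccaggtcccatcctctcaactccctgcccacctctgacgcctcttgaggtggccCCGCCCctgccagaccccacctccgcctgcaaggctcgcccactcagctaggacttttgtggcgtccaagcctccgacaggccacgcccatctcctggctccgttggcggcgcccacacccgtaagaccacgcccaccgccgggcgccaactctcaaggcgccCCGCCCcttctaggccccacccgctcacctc
Rab3c: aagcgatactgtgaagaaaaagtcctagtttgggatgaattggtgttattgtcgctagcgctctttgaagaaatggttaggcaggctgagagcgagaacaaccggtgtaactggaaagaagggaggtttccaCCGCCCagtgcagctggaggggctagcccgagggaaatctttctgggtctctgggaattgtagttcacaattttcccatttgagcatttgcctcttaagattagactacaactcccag
Vamp5: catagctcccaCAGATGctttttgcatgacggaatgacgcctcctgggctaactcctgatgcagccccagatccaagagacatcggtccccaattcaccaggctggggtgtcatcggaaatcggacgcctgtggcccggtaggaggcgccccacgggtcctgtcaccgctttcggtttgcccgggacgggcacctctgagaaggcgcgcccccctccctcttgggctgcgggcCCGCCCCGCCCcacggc
Stx1a: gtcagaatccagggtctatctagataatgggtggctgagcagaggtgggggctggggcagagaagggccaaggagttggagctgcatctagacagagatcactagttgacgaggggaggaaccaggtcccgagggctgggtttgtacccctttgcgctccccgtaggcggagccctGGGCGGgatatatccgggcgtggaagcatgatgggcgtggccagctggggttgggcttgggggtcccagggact

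The stretch before *Sytl4* held none of these letters and 5 CpGs, and that before *Rab3d* held GC boxes and 18 CpGs, although both genes were higher in beta cells. The stretches shown for *Rab3c* and *Stx1a*, both lower in beta cells, also held a GC box each, and that for *Vamp5*, lower as well, held GC boxes, an E-box and 19 CpGs. The E-box was thus found before 1 gene of each direction. Over windows that also take in the 50 bases after the start (300 in all), 59 members had 74 windows and 17 members had none. A GC box was found in 48 of these 74 windows (64.9%) and in 35.7% of 32851 windows of all genes. A TATA box was found in 3 (4.05%, all genes 13.6%). The E-box was found in 7 (9.46%, all genes 17.2%), the RE1 half-site in 7 (9.46%, all genes 7.14%), the CRE half-site in 4 (5.41%, all genes 7.51%) and the forkhead site in 2 (2.703%, all genes 3.65%). The members' windows had a median of 18 CpGs and all windows a median of 7. These are matches of letters and no measure of binding.

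The priming factors *Unc13a* and *Unc13b* were higher in beta cells. *Unc13a* encodes Munc13-1, which opens syntaxin for assembly, and led its family in both kinds of cell. It had 92.2 to 134 CPM (median 98.9) in beta and 29.7, 50.6 and 43.6 CPM in non-beta cells (log2 change 1.25 (SE 0.13, adjusted *p*=2.38e-05)), with 495 exonic bases shared with *Colgalt1* on the opposite strand. *Unc13b*, encoding Munc13-2, had 49.2 to 83.3 CPM (median 54.2) and 18.1, 30.4 and 24.2 CPM (log2 change 1.20 (adjusted *p*=9.83e-06)). *Unc13d* encodes Munc13-4, a Rab27 effector of cytotoxic lymphocytes and other blood cells. It was at 0 in 4 of 8 beta libraries, and both libraries of mouse 4 (1.35 and 1.04 CPM) were above the other 6. The non-beta libraries had 4.06, 2.52 and 1.48 CPM and the log2 change was −6.67 (SE 1.17, adjusted *p*=0.000792). That call was lost without the mouse as a block (log2 change −2.85, adjusted *p*=0.127) and without mouse 3 (adjusted *p*=0.0108).

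Among the syntaxin-binding proteins, *Stxbp2* (Munc18-2) and *Stxbp3* (Munc18c) changed by 0.29 (adjusted *p*=0.0302) and −0.29 (adjusted *p*=0.153). The tomosyns occupy syntaxin and hold back fusion. *Stxbp5* (tomosyn-1) changed by 0.41 (adjusted *p*=0.00892), under 2-fold. *Stxbp5l* (tomosyn-2) had 5.90 to 17.2 CPM (median 10.5) in beta cells and 15.2, 25.7 and 21.8 CPM in non-beta cells, ranges that overlapped, and fell by 1.02 on the log2 scale (adjusted *p*=0.000224). Its call was lost without the block (log2 change −0.86), without mouse 3 (−0.99) and with the libraries labelled NNAT-positive alone (−0.82). *Stxbp6* (amisyn), another syntaxin partner, changed by 0.56 (adjusted *p*=0.000387), and *Stxbp4* by −0.033 (adjusted *p*=0.861).

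Of the syntaxins, 0 of 14 were called higher and 3 lower (21.4%, beside 18.9% of all genes), a share near that of all genes. With edgeR, an unadjusted *p* below 0.05 was reached by 5 higher and 5 lower syntaxins, beside 4311 and 5659 of all 17424 tested genes. DESeq2 also called 0 higher. *Stx1a* (ENSMUSG00000007207.10, chromosome 5 of GRCm38 from 135023482 to 135051100, plus strand), the syntaxin of predocked insulin granules and neurons, was low throughout. The libraries labelled NNAT-positive had 6.88, 3.65, 7.02 and 8.41 CPM for mice 1 to 4, and those labelled NNAT-negative 4.61, 5.97, 5.83 and 7.71 CPM. The non-beta libraries had 12.99, 10.5 and 16.5 CPM, above every beta library. Its log2 change was −1.22 (SE 0.21, adjusted *p*=0.000772), and −1.15 without mouse 3, where the call was lost (adjusted *p*=0.0188). *Stx2* had 5.82 to 16.002 CPM (median 10.6) and 29.8, 28.6 and 32.2 CPM (log2 change −1.37 (adjusted *p*=0.00104)), a call also lost without mouse 3. *Stx11*, a syntaxin of immune cell granules, had 7.70, 4.11 and 2.58 CPM in non-beta cells and at most 0.580 CPM in beta cells (log2 change −4.47 (adjusted *p*=0.00221), lost without mouse 1 or mouse 3 and with the libraries labelled NNAT-negative alone).

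*Stx4a* and *Stx3*, plasma membrane syntaxins that also serve insulin granules, were not called. *Stx3* had 36.2 to 45.7 CPM (median 40.8) in beta cells and 21.2, 24.2 and 19.3 CPM in non-beta cells without overlap, and changed by 0.91 (SE 0.09, adjusted *p*=1.37e-05) on the log2 scale, under 2-fold. *Stx4a* changed by −0.40 (adjusted *p*=0.0326), not past the threshold, and shares 124 exonic bases with another gene on the opposite strand. Syntaxins of the Golgi apparatus, endosomes and ER made up the rest, 8 members of which 0 were called by edgeR or DESeq2. With edgeR 4 of them had an unadjusted *p* below 0.05, all higher in beta cells, where 4311 of 17424 tested genes were higher. Of the 8, *Stx7* of late endosomes had the highest level per length among all syntaxins in beta cells (27.6 CPM per kb) and *Stx12* of recycling endosomes in non-beta cells (21.7 CPM per kb). *Stx7* had 105 to 138 CPM (median 123) and 82.8, 73.3 and 66.8 CPM (log2 change 0.79 (adjusted *p*=7.22e-06)). *Stx12* changed by 0.30 (adjusted *p*=0.0106), and *Stx16* of the trans-Golgi network by −0.21 (adjusted *p*=0.112).

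In edgeR's test 3 of 5 SNAPs had an unadjusted *p* below 0.05, beside 9970 of 17424 tested genes. No SNAP was called there or with DESeq2. *Snap25*, the SNAP of neurons and endocrine cells, was nearest. Its level was 111 to 193 CPM (median 139.7) in beta cells and 63.5, 71.4 and 69.5 CPM in non-beta cells, with no overlap and a log2 change of 0.98 (SE 0.10, adjusted *p*=1.79e-05). The estimate passed 2-fold without the block (1.13), without mouse 2 (1.05), without mouse 3 (1.01) and with the libraries labelled NNAT-positive alone (1.03). Its ubiquitous relative *Snap23* overlapped (26.6 to 51.3 CPM (median 48.7) beside 48.4, 28.6 and 36.2 CPM, log2 change 0.19 (adjusted *p*=0.21)). *Snap47* had the highest level per length of the family in both kinds of cell (28.3 and 24.9 CPM per kb), changed by 0.23 (adjusted *p*=0.031) and shares 307 exonic bases with *Jmjd4* on the opposite strand. *Snap29* changed by −0.11 (adjusted *p*=0.505), and *Snap91* by 0.55 (adjusted *p*=0.00391).

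Of the vesicle SNAREs, *Vamp2* was the most abundant per length in both kinds of cell (53.5 and 31.7 CPM per kb). VAMP2 is the granule SNARE of insulin secretion. Its RNA was at 189 to 228 CPM (median 206) in beta and 109, 128 and 125 CPM in non-beta cells, all beta libraries higher, with a log2 change of 0.77 (SE 0.075, adjusted *p*=1.25e-05) that stayed under 2-fold. *Vamp4*, of the trans-Golgi network, was likewise higher in every beta library (83.8 to 99.5 CPM (median 94.0) beside 51.7, 58.1 and 60.5 CPM, log2 change 0.70 (adjusted *p*=4.33e-05)). *Vamp3*, which can stand in for *Vamp2*, changed by −0.25 (adjusted *p*=0.0222), with all beta libraries below the non-beta ones. *Vamp8*, the SNARE of newcomer insulin granules and of zymogen granules, had 43.6 to 81.6 CPM (median 56.5) and 58.0, 56.7 and 67.0 CPM, and its log2 change of 0.037 (adjusted *p*=0.83) turned negative under 5 of the other settings tried, among them DESeq2 (−0.042). *Vamp1* changed by −0.036 (adjusted *p*=0.877). Of 6 VAMPs tested, 1 was called (16.7%, beside 25.1% of all genes in either direction), *Vamp5* (log2 change −3.37 (SE 0.56, adjusted *p*=0.000552)), known from muscle and at 0.246 to 2.34 CPM (median 0.747) in beta cells and 13.1, 8.16 and 12.9 CPM in non-beta cells.

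**Figure D3:**
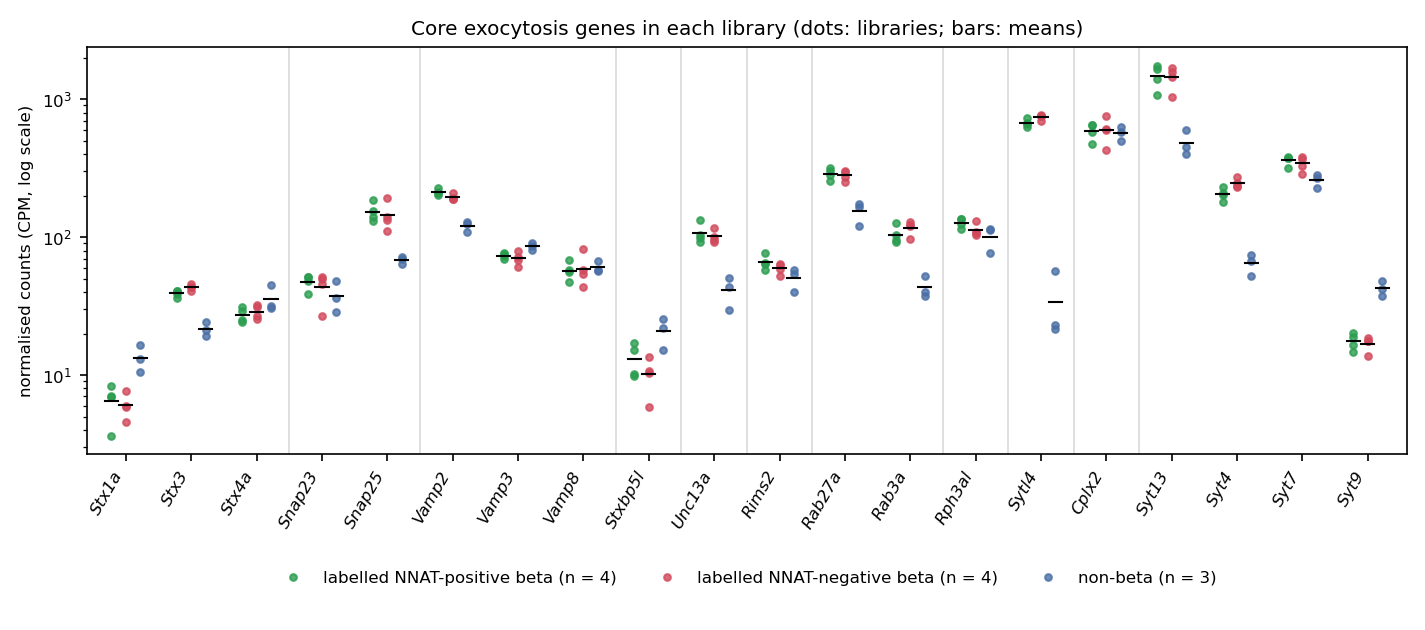
Level of 20 textbook genes of insulin granule exocytosis (x axis, ordered by family) in CPM on a log axis, one dot per library and a bar at the mean of each fraction: 4 libraries labelled NNAT-positive beta, 4 labelled NNAT-negative beta and 3 non-beta. *Sytl4* shows the widest gap between beta and non-beta dots, *Stx1a*, *Stxbp5l* and *Syt9* are among those with higher means in non-beta cells, and the ranges of the beta fractions overlap for every gene shown.

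The synaptotagmins were the largest family, with 5 of 15 higher and 6 lower (33.3% and 40%, beside 6.22% and 18.9% of all genes). *Syt13* (ENSMUSG00000027220.2, chromosome 2 of GRCm38 from 92915098 to 92956058, plus strand), an atypical synaptotagmin that does not bind calcium, had the highest level per length of all 76 members in both kinds of cell. The libraries labelled NNAT-positive had 1645, 1409, 1754 and 1067 CPM for mice 1 to 4, those labelled NNAT-negative 1582, 1447, 1691 and 1039.7 CPM, and the non-beta libraries 399, 448 and 596 CPM for mice 1 to 3. Both libraries of mouse 4 were below the other 6 beta libraries and still above every non-beta library, and the log2 change was 1.74 (SE 0.11, adjusted *p*=5.49e-07). *Syt4*, also without calcium binding and known from mature beta cells, had 179 to 271 CPM (median 231) and 52.1, 74.3 and 67.5 CPM (log2 change 1.85 (SE 0.12, adjusted *p*=5.5e-07)), and 9.01% of its 75-base words occur in *Gm26658* on the opposite strand. *Syt14* followed with 117 to 143 CPM (median 140.0) and 52.7, 73.1 and 62.5 CPM (log2 change 1.11 (adjusted *p*=3.7e-06)). At a lower level, the calcium sensors *Syt2* (9.08 to 27.4 CPM (median 17.4) beside 5.06, 6.55 and 5.89 CPM, log2 change 1.55 (adjusted *p*=0.000184)) and *Syt3* (10.1 to 19.7 CPM (median 14.3) beside 6.29, 6.02 and 5.97 CPM, log2 change 1.38 (adjusted *p*=3.73e-05)) were higher in beta cells.

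Sensors proposed for insulin granules went both ways. *Syt7*, the slow, high-affinity sensor, had 289 to 383 CPM (median 370.4) in beta cells and 226, 279.9 and 271 CPM in non-beta cells, with no overlap, and a log2 change of 0.51 (SE 0.08, adjusted *p*=0.000368), under 2-fold. It shares 384 exonic bases with *Gm26859* on the opposite strand. *Syt9* had 13.7 to 20.0 CPM (median 17.6) in beta cells and 42.0, 48.4 and 37.4 CPM in non-beta cells, and was lower in beta cells by a log2 change of −1.22 (SE 0.10, adjusted *p*=3.35e-06). Per length, *Syt7* stood at 46.9 CPM per kb in beta cells and *Syt9* at 4.33. *Syt5* and *Syt11* overlapped between the fractions (log2 changes 0.26 (adjusted *p*=0.0803) and −0.21 (adjusted *p*=0.194)). *Syt1*, the fast sensor of neurons, had 1.07 to 7.30 CPM (median 4.78) in beta cells and 21.3, 30.7 and 32.6 CPM in non-beta cells (log2 change −2.58 (adjusted *p*=0.000147)), and *Syt16* had 0.700 to 3.11 CPM (median 1.71) and 9.90, 25.9 and 11.2 CPM (log2 change −3.34 (adjusted *p*=1.9e-05)). *Syt17* and *Syt6* were called lower at no more than 5.46 and 1.67 CPM in any library, and both were fragile. *Syt6* lost its call whichever mouse was left out, and *Syt17* lost it without mouse 1, 2 or 3.

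The largest fall of any member was that of *Syt15* (ENSMUSG00000041479.14, chromosome 14 of GRCm38 from 34219595 to 34230420, plus strand), a synaptotagmin without calcium binding. It was at 0 in 7 of 8 beta libraries, with 2 counts in the remaining one, and had 14.7, 9.75 and 12.3 CPM in the non-beta libraries, or 1505 counts. The ratio of its counts per library size was 1973 in favour of non-beta cells, with an exact 95% counting interval from 545 to 16306. Summed over the family, the synaptotagmins stood at 419–624 CPM per kb in beta and 199–269 CPM per kb in non-beta libraries, and *Syt13* made up 65.5–74.8% and 49.9–59.0% of that.

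No complexin was called in edgeR's test, and DESeq2 called *Cplx3*. An unadjusted *p* below 0.05 in edgeR's test was reached by 1 of 2, beside 9970 of 17424 tested genes. *Cplx2*, which binds the assembled SNARE complex and holds it ready, was at 431 to 751 CPM (median 603) in beta cells and 498, 633 and 582 CPM in non-beta cells, overlapping, with a log2 change of 0.17 (adjusted *p*=0.216). It made up at least 99.4% of its family per length in every library. *Cplx1*, the main complexin of many neurons, was not tested, with 21 counts in all beta libraries and 27 in the non-beta libraries, the latter all from mouse 1. *Cplx3* was at 0.419 to 2.92 CPM (median 0.953) in beta cells and at most 0.291 CPM in non-beta cells (adjusted *p*=0.0133). The other untested members were near or at 0. *Syt8* had 0 counts in all 11 libraries, *Syt10* and *Cplx4* 1 count each, and *Stx19*, *Vamp9* and *Unc13c* had 15, 38 and 0 counts in beta cells and 5, 14 and 23 in non-beta cells.

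Genes that act beside the members under other symbols (60 genes in 7 roles, all tested) were counted in the same fit. Of these, 9 were higher and 6 lower (15.0% and 10.0%, beside 6.22% and 18.9% of all genes), or 15 of 60 in either direction beside 25.1% of all genes, and their median log2 change was 0.49. Among the called genes the highest rises were those of *Pclo* (2.72), the active zone scaffold piccolo, *Syp* (2.10), encoding synaptophysin, *Mlph* (2.08) and *Madd* (2.07), a Rab27 effector and a Rab3 exchange factor, and *Sv2a* (2.04), a vesicle membrane protein. *Exph5*, *Doc2b*, *Erc2* and *Syn2* rose by 1.77, 1.61, 1.57 and 1.45. Those lower in beta cells were *Otof* (−5.23), *Rab3il1* (−5.15), *Ppfia4* (−4.69), *Sv2b* (−2.69), *Ppfia2* (−1.70) and *Exoc6* (−1.39). The NSF and SNAP adaptors that recycle SNAREs changed by 0.38 to 0.94 with 0 of 4 called in edgeR's test. All 4 had an unadjusted *p* below 0.05 there, beside 9970 of 17424 tested genes.

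The second comparison asked whether exocytosis genes differ between beta cells sorted by *Nnat* reporter. Between the libraries labelled NNAT-positive and those labelled NNAT-negative, 0 of 69 members were called with edgeR's quasi-likelihood test, beside 0.0459% of all tested genes (8 genes, all higher). DESeq2 also called 0 members (lowest adjusted *p* 0.128). An unadjusted *p* below 0.05 was reached with edgeR by 2 higher and 1 lower member (4.35% of members in either direction), where 4.82% of all genes were higher and 0.746% lower (5.56% either way). DESeq2 had 9 such members of 69 (the share of all genes was not counted), and the fit to the 8 beta libraries alone had 8 of 63 (12.7%, all genes 7.01%). The members' median log2 change was 0.036, and that of all genes 0.053. The library labelled NNAT-positive was the higher one in 4 of 4 mice for 9 members (13.04%, all genes 11.4%) and the lower one in 4 of 4 for 6 (all genes 4.40%).

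The 3 members with an unadjusted *p* below 0.05 were *Stxbp5l*, *Stxbp6* and *Syt4*. *Stxbp5l*, the tomosyn that restrains fusion, had 10.3, 15.1, 9.87 and 17.2 CPM in mice 1 to 4 under the label NNAT-positive and 5.90, 10.7, 10.4 and 13.5 CPM under the label NNAT-negative, higher under the first in 3 of 4 mice. Its log2 change was 0.39 (95% interval 0.045 to 0.74, unadjusted *p*=0.0304 and adjusted *p*=0.834 in edgeR's quasi-likelihood test). *Stxbp6* had 50.7, 56.0, 54.9 and 39.9 CPM and 39.7, 45.8, 50.9 and 38.7 CPM, higher in 4 of 4 mice, with a log2 change of 0.20 (95% interval 0.0058 to 0.39). *Syt4* had 231, 209.5, 203 and 179 CPM and 247, 271, 236 and 231 CPM, lower under the label NNAT-positive in all 4 mice, by a log2 change of −0.26 (95% interval −0.49 to −0.021). The ranges of *Stxbp5l* and *Stxbp6* overlapped between the fractions and those of *Syt4* met, and none of the 3 passed the adjustment over all genes. Which members came first depended on the libraries fitted. In the fit to the beta libraries alone, *Stxbp5l* (unadjusted *p*=0.0507) and *Stxbp6* (0.0899) were no longer below 0.05 in edgeR's test. Below it there were *Syt4* (log2 change −0.30), *Sytl4* (−0.18, unadjusted *p*=0.00878, lower under the label NNAT-positive in 4 of 4 mice), *Rab3b* (0.29, unadjusted *p*=0.0102), *Vamp4* (−0.19), *Rab3a* (−0.21), *Stx3* (−0.19), *Syt1* (0.85) and *Rph3al* (0.14), with a lowest adjusted *p* of 0.179. In the fit to all libraries, next in order came *Syt16* (0.81), *Syt1* (0.81) and *Stx16* (0.21) upward, and *Vamp4* (−0.15), *Rab3a* (−0.17) and *Stx3* (−0.15) downward, at unadjusted *p* values from 0.0536 to 0.104.

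How far the fractions could differ is given here by the intervals of the fit to all libraries, and their width depended on the libraries fitted. With the beta libraries alone the SE was 0.0565 for *Sytl4* and 0.052 for *Rims3*, beside 0.21 and 0.12 with all libraries. For *Syt16* it was larger with the beta libraries alone (0.45 beside 0.37). For all 50 members with a mean of at least 10 CPM in beta cells the 95% interval lay within 2-fold in either direction, and for 43 of them within 0.5 on the log2 scale. The interval ran from −0.61 to 0.31 for *Sytl4*, from −0.34 to 0.19 for *Rims3*, from −0.20 to 0.25 for *Syt13*, from −0.21 to 0.28 for *Rab27a* and from −0.11 to 0.32 for *Snap25*. For *Vamp2* it was −0.038 to 0.29, for *Syt7* −0.091 to 0.26, for *Cplx2* −0.24 to 0.24 and for *Stx1a* −0.44 to 0.57. Of the 19 tested members under 10 CPM, 2 had an interval within 2-fold, so for the others a difference of more than 2-fold lay within the interval. Among them, *Syt15* was at or under the floor of 3 counts in every beta library, and no fold is given.

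**Figure D4:**
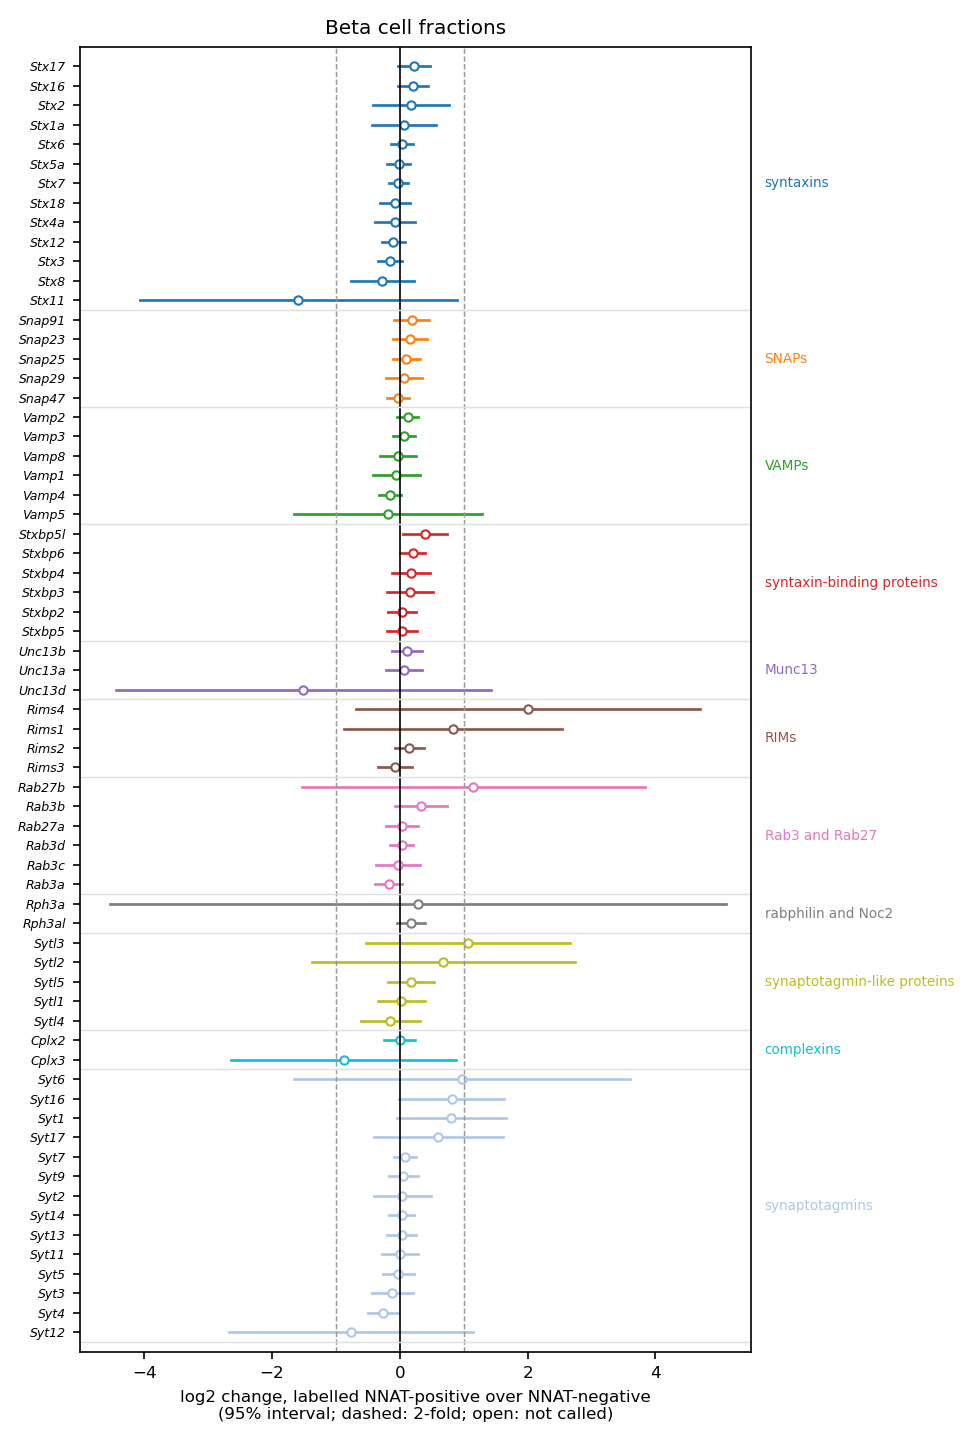
The log2 change in the libraries labelled NNAT-positive over those labelled NNAT-negative (x axis) for 66 tested members, one per row and coloured by family, with 95% intervals and dashed lines at 2-fold; *Syt15* is left out. No circle is filled, since no member was called, and the long intervals belong to members under 10 CPM in beta cells.

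Markers of other islet cells moved with these fractions. The library labelled NNAT-positive was higher in 4 of 4 mice for 3 of 6 alpha, 3 of 3 delta and 2 of 2 PP markers, beside 11.4% of all genes. Under the label NNAT-positive the summed levels were 2818–4077 CPM for alpha, 1400–2487 CPM for delta and 300–421 CPM for PP markers, and under the label NNAT-negative 1587–2486, 543–1046 and 89.0–159 CPM, and no marker of these lists was at 0. In the beta, acinar, duct, endothelial, leukocyte and stellate lists 0 markers were higher in 4 of 4 mice, and in the neural list 1 of 4 was. *Stxbp5l*, *Syt1* and *Syt16* were also the higher ones in non-beta cells, and *Syt4*, *Vamp4*, *Rab3a* and *Stx3* the lower ones, in a comparison that shares the beta libraries. *Stxbp6* and *Rph3al* went the other way, since both were higher under the label NNAT-positive and lower in non-beta cells. Their log2 changes of beta over non-beta cells were 0.56 and 0.31, the latter with overlapping ranges. The part of these cells in the members' values was not tested.

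Mice differed among themselves as well. Both beta libraries of mouse 4 lay above the other 6 for 11 members (15.9%, all genes 18.7%) and below them for 13 (18.8%, all genes 15.8%). Above were *Stx5a*, the syntaxin of ER to Golgi transport (152 and 148 CPM beside 57.2 to 97.0 CPM), *Unc13a*, *Unc13b* and *Snap25*. Below were *Syt13*, *Rab3d* (202 and 199 CPM beside at least 298 CPM), *Rab27a*, *Syt7* and *Cplx2*. Without mouse 4, 27 of the 28 calls between beta and non-beta cells remained, the exception being *Syt6*.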

How the data were processed

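Poly(A) RNA of FACS-sorted islet cells was sequenced by the authors, aligned to mm10 with STAR 2.7.1a and counted on gencode genes, and the deposited counts are whole numbers without normalisation. Whether counting used the strand is not given in the sources used here. The submitters' notes also name DESeq2 1.32.0.

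Members were the genes whose symbol matched a pattern of family names. Groups came from the sample labels. Of 55 pairs of libraries, 0 were identical. Genes were filtered with filterByExpr by fraction and tested with the quasi-likelihood test of edgeR 4.0.16 in R 4.3.3 after TMM scaling, with all 11 libraries in one fit and the mouse as a block. The SE of a log2 change was its size over the root of the *F* statistic, and TMM-scaled library sizes gave CPM. Replicate numbers are mice, and deviations of the beta fractions of the same mouse from their group means correlated by 0.182 to 0.658 (other pairs −0.103 on average), while those with the non-beta fraction did so by 0.0321 to 0.125.

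Exon lengths, positions and overlaps came from gencode M21 on GRCm38. Of the 76 members, 47 shared no 75-base word with a transcript of another gene, and 8 shared over 5% of theirs, of which *Stx18* (28.2%), *Sytl3* (18.8%), *Syt12* (15.4%), *Stxbp3* (7.76%), *Syt6* (7.03%) and *Rab3b* (6.99%) are least certain beside *Syt4* and *Snap47*. Promoter stretches shown are those of the 3 called members with the largest change in each direction that met 3 conditions. These were a single RefSeq start, at most 30 exonic bases in the stretch and a place outside chromosome 18. *Syt4* and *Rab27b*, both called, lie on that chromosome and were not taken.

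Named with values were 22 textbook genes of insulin granule exocytosis, the leading members of each family per length, the called member of largest change per family and direction, and the 5 of smallest *p* per direction between the beta fractions. Others are named where a family is counted out. Of these, 2 members are counted in the families but not reported here by name. Alternatives were DESeq2 1.42.0, RLE scaling, TMM without the 20 most abundant genes, no filter, no block, other thresholds, either beta fraction alone, the beta libraries alone and leaving out each mouse. Tests were also tried on simulated data. There, for beta against non-beta cells, edgeR called 2 unchanged genes and DESeq2 25. Between the beta fractions edgeR called 1 and DESeq2 27. The members and lists were chosen with earlier results of these data known, and classes of syntaxins after their values were seen. The authors' own comparison tables were not used.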

Additional observations from a re-analysis of the deposited data

Results flagged for a closer look

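In 9 of 76 groups of 4 beta libraries (38 named members in either fraction), the highest or lowest library lay far from the other 3 by Dixon's ratio, where chance gives about 1 in 20. For high values in the fraction labelled NNAT-positive, *Unc13d* had 1.35 CPM in mouse 4 (others at most 0.0281), *Vamp4* 94.1 CPM in mouse 1 (others 83.8 to 84.6) and *Sytl5* 34.3 CPM in mouse 1 (others 28.5 to 29.4). *Syt7* was low in mouse 4 of that fraction, at 316 CPM (others 372 to 382). In the fraction labelled NNAT-negative, mouse 4 was high for *Rims3*, at 247 CPM (others 219 to 222), for *Sytl2*, at 0.410 CPM, and for *Syt15*, at 0.0547 CPM, with the others at 0 for both. Mouse 1 of that fraction was low for *Sytl4*, at 699 CPM (others 756 to 768), and high for *Stx12*, at 94.8 CPM (others 83.8 to 84.9). With the others at 0 any count gives the largest ratio, and the value of *Syt15* is 2 counts, under the floor of 3. Without these 2 values 7 are left, of which 3 are of mouse 4. Every flagged value of *Rims3*, *Sytl4*, *Vamp4*, *Syt7* and *Sytl5* stayed on its fraction's side of the non-beta libraries.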

How the results depend on the processing

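No member was called between the beta fractions by edgeR or DESeq2 under any setting tried. Of the members named for that comparison, 0 of 99 log2 changes under other settings turned direction. That count is no check on direction, since these members were named for their small *p* in the same libraries. The setting with another threshold also reuses the main fit. Between beta and non-beta cells, an adjusted *p* below 0.05 with no fold threshold called 51 members (31 higher) and 43 of the other exocytosis genes (35 higher), beside 22.3% of all genes higher and 30.1% lower. The count of members called lay between 24 and 28 when a mouse was left out, with 13 to 15 higher and 9 to 14 lower. Over all genes, 958 to 1099 were called higher and 2609 to 3188 lower in these fits, of 16913 to 18222 tested. Leaving out mouse 3 gave the 9, and the 7 members whose call it ended were *Stx11*, *Stx1a*, *Stx2*, *Stxbp5l*, *Syt17*, *Syt6* and *Unc13d*. Without the replicate block, 25 of the 28 calls were kept, *Stxbp5l*, *Syt6* and *Unc13d* lost theirs, and *Rims4* and *Snap25* gained one. DESeq2 kept all 28 and added others, among them *Cplx3*, *Rims4* and *Sytl5*. The log2 change of *Vamp8* turned to −0.042 with DESeq2 and with RLE scaling, −0.029 without the 20 most abundant genes, −0.057 without the replicate block and between −0.11 and 0.10 when a mouse was left out, and it passed no threshold in any of these. Of the log2 changes of the named members in this comparison under other settings, 414 kept their direction and side of the threshold, 28 passed it newly, 9 no longer passed it and 5 turned. The median of all genes moved by less than 0.1 under the other scalings (from −0.098 to at most −0.177). Between the beta fractions, 2 of the 19 tested members under 10 CPM had a 95% interval within 2-fold, and depth was not told apart from the spread between mice. The cause of these changes was not tested.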
